A study of Homo sapiens with 22 samples.

Results

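The genes described here encode the core of Polycomb repressive complex 2 (PRC2), 3 of its accessory subunits and the enzymes that undo its mark. They are EZH1, EZH2, SUZ12, EED, RBBP7, JARID2, MTF2, PHF19, KDM6A and KDM6B, listed by name, and all 10 were found among the 36859 genes of the expression table. PRC2 places methyl groups on lysine 27 of histone H3 (H3K27), a mark of silenced genes. EZH1 or EZH2 is the catalytic subunit, EED reads the mark, SUZ12 holds the complex together, RBBP7 binds the histone, and JARID2, MTF2 and PHF19 guide the complex to its sites. KDM6A and KDM6B remove the methyl groups again. SETD2 trimethylates a neighbouring residue, H3K36, and histones that carry that mark are poor substrates for PRC2, so the level of the PRC2 genes in cells without SETD2 is of interest.

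RNA-seq was run on hTERT-immortalized renal proximal tubule epithelial cells (RPTEC), in 11 groups of 2 libraries each. In medium with 2% serum there were untreated wild-type cells (WT), WT given 10 ng/ml TGF-β for 72 h, and KO1 and KO2, each 1 clone in which CRISPR/Cas9 with a guide in exon 3 disrupted SETD2. A further line grown in 2% serum is labelled as a rescue of KO2. In 10% serum there were Rescue1 and Rescue2, 2 single-cell clones of knockout cells that carry lentiviral 3×FLAG-tagged SETD2 under blasticidin selection, and bulk puromycin-selected WT cells transduced with eGFP (the empty vector), SOX2, OCT2 (the POU2F2 gene) or PRRX1. The rescue clones and the knockout clones therefore differ in serum and in transduction as well as in SETD2, and these cannot be told apart. No source states that the 2 libraries of a group came from separate cultures, so the p-values measure only the spread between these libraries, which may be technical.

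Depth was about 7800000 to 18600000 reads per library, and the median difference between replicates among genes over 1000 normalized counts was 0.064 to 0.17 on the log2 scale. SETD2 mRNA checked the labels. It was at 1852 and 2061 normalized counts in WT, at 1046 to 1130 in the 4 knockout libraries and at 9764 to 10445 in the 4 rescue libraries. The transduced WT libraries held 2702 to 3128, and eGFP was above WT by 0.64 (log2, limma adjusted p under 0.05). In the libraries labelled KO2 rescue SETD2 was at 834 and 820, lower than in KO2 by 0.35 (log2, limma adjusted p = 0.00382), so this RNA goes against the label. The renal transcription factor PAX8 was present in every library (1535 to 6561 normalized counts) and KRT8, an epithelial keratin, was at 3952 or more. LRP2, the proximal tubule receptor megalin, was at or near 0 throughout. CDH1 (E-cadherin) was at 25.5 and 47.5 in WT and at 0 and 10.2 after TGF-β. It was at 0 to 3.23 in the knockout, labelled KO2 rescue and rescue libraries, and at 0 to 58.0 in the transduced WT libraries. The 2 WT libraries differed in COL1A1, a collagen gene, at 11919 and 532. KO1 replicate 2 had the fewest genes above 0 (14082) although it was the deepest library.

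Normalized counts are the deposited log2 values turned back to the linear scale. Differences are given as log2 changes of normalized count plus 1, with the standard error (SE), and a change was called where limma's p, adjusted over all 14585 genes tested, was under 0.05. Per kilobase of transcript, which allows levels of different genes to be compared, RBBP7 had the highest median over the 22 libraries at 1242, followed by EZH2 at 267, KDM6B at 116, KDM6A at 88.7, PHF19 at 56.2, MTF2 at 55.4 and EED at 55.2. EZH1 at 27.4, SUZ12 at 15.7 and JARID2 at 1.23 were lowest. PHF19, MTF2 and EED cannot be ranked against each other, since the range of each over the libraries spanned the other medians. The same held for EZH2 and KDM6B, KDM6B and KDM6A, KDM6A and PHF19, EZH1 and SUZ12, and SUZ12 and JARID2. The order is therefore one of medians only.

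All 10 genes had a promoter of 300 bases in the RefSeq set (GRCh38.p14, 250 bases before the start site to 50 after). 4 of them, EZH2, PHF19, SUZ12 and MTF2, held a word bound by E2F factors, which drive genes of the dividing cell. These 4 are shown because the levels of EZH2 and PHF19 are set beside those of proliferation genes further on. The words searched on both strands were GCGGGAA, found in 6.55% of 35116 promoters, and TTTGGCGC, found in 0.652%. Each line holds 120 bases, 5′ to 3′ on the gene's strand, with the E2F word in capitals.
EZH2 (chr7:148884272-148884391, minus strand): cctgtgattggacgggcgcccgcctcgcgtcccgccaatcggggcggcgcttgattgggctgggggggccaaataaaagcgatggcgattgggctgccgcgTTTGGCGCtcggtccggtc
PHF19 (chr9:120877278-120877397, minus strand): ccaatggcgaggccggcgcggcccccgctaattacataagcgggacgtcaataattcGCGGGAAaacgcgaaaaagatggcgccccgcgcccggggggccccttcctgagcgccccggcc
SUZ12 (chr17:31936762-31936881, plus strand): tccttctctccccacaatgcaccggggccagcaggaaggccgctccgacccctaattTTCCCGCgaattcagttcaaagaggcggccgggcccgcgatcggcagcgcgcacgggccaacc
MTF2 (chr1:93079183-93079302, plus strand): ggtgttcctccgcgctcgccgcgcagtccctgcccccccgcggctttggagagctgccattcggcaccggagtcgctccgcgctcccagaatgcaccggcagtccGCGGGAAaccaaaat
Counted with the start site as the initial base, the E2F word began at base 2 in EZH2 and at base 6 in MTF2. It began 152 bases before the start site in PHF19 and 188 before it, on the opposite strand, in SUZ12. The EZH2 promoter also held 4 copies of CCAAT, a word present in 34.6% of promoters. CCAAT was found in those of SUZ12, EED, JARID2, PHF19, RBBP7 and KDM6A as well. KDM6A held a match to the AP-1 word TGANTCA, present in 7.71% of promoters, 110 bases before its start site. In the KDM6B and EZH1 promoters none of the 8 words searched was present. Beside those named, the search covered the SMAD word GTCTAGAC (found in 0.202% of promoters), the ETS word CCGGAAG (in 10.3%), the consensus word of NRF1 (in 1.24%) and the word TTTGAA of late cell cycle genes (in 15.2%). Of these only TTTGAA was found, in SUZ12, 173 bases before its start site on the opposite strand. A match is a description of the letters and does not show that a factor binds there.

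EZH2 was the catalytic subunit with the most RNA, and it was lower both after TGF-β and in the SETD2 knockout clones. The gene lies at chr7:148807257-148884321 on the minus strand (GRCh38), with 20 exons in its canonical transcript, and 3.47% of the 31-base words of that transcript also occur in the pseudogene EZH2P1. WT held 876 and 1014 normalized counts, and TGF-β-treated WT held 433 and 462. KO1 held 329 and 364, KO2 held 288 and 299, and the libraries labelled KO2 rescue held 249 and 216. Thus the lowest WT library was above every other library grown in 2% serum, and the groups did not overlap. Rescue1 was at 758 and 798, Rescue2 at 851 and 814, and eGFP at 743 and 746. These 10% serum groups lay between WT and the knockout clones, and the SOX2, OCT2 and PRRX1 libraries, at 606 to 768, lay in the same range.

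**Figure D1:**
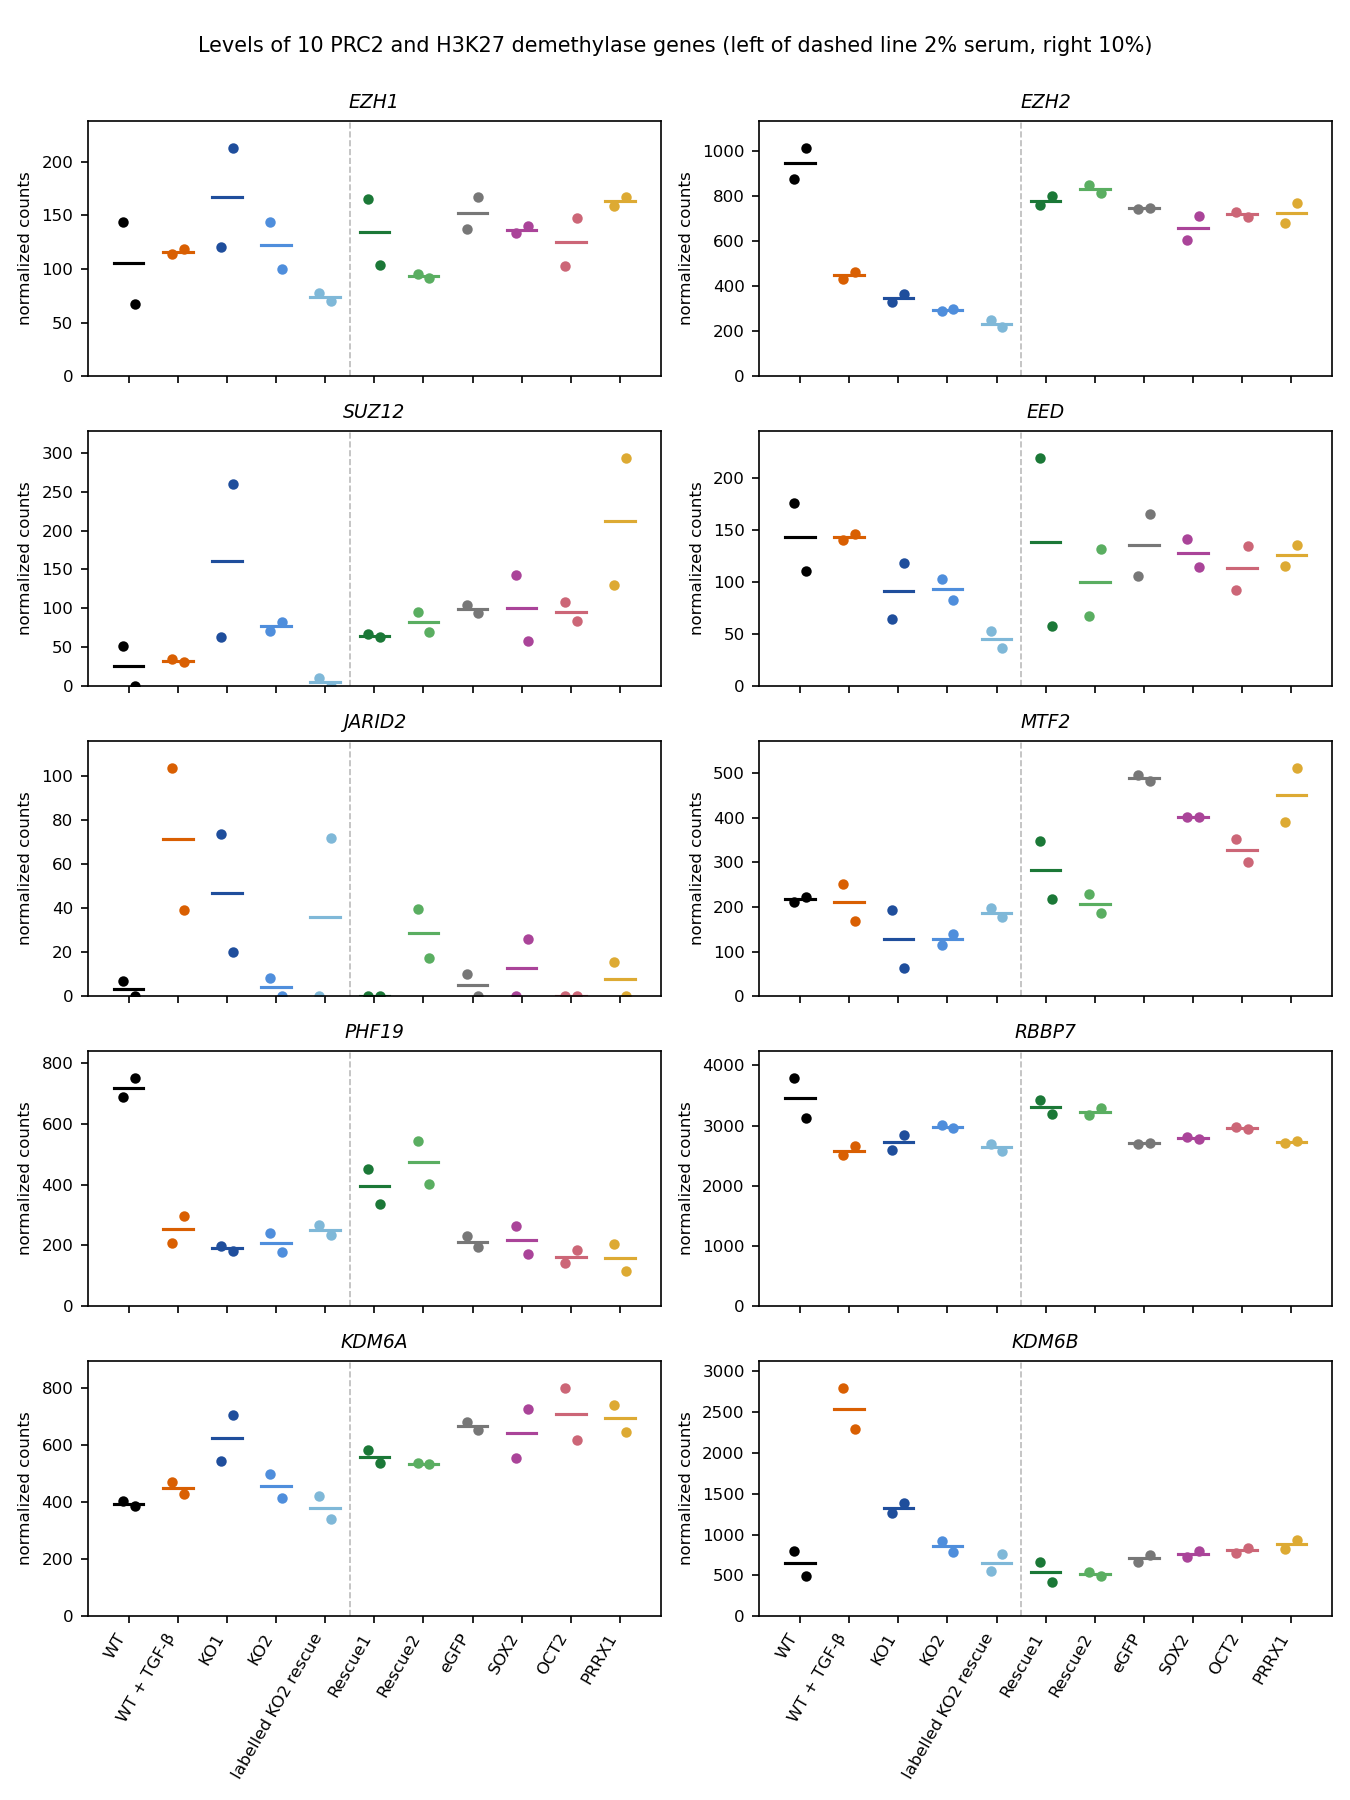
Normalized counts of the 10 genes in each of the 22 libraries (points) with the group mean (horizontal line), 1 panel per gene on its own linear axis from 0. EZH2 and PHF19 were highest in WT among the 2% serum groups on the left of the dashed line, KDM6B was highest after TGF-β at 2788 and 2287, and SUZ12 and JARID2 include libraries listed at 0.

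TGF-β lowered EZH2 2.10-fold, by a log2 change of -1.07 (SE 0.12, limma adjusted p = 1.5e-05). In KO1 the decrease was 2.72-fold (log2 change -1.44, SE 0.12, limma adjusted p = 1.2e-07) and in KO2 it was 3.21-fold (log2 change -1.68, SE 0.12, limma adjusted p = 4.3e-08). All 3 comparisons share the same WT libraries. Against TGF-β-treated cells the mean of the knockout clones was lower by a further 0.49 (SE 0.10, limma adjusted p = 0.0013). The clones themselves did not pass the test against each other, with KO1 above KO2 by 0.24 (95% interval -0.01 to 0.49, limma adjusted p = 0.19).

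The rescue clones held 2.52-fold more EZH2 RNA than the knockout clones (log2 change 1.33, SE 0.08, limma adjusted p = 5.1e-09). Against eGFP cells, which share their serum, the difference was 0.11 (95% interval -0.10 to 0.33, limma adjusted p = 0.458). The eGFP cells in turn were lower than WT by 0.34 (SE 0.12, limma adjusted p = 0.0428), a call that was lost without WT replicate 2 (-0.23) or without either eGFP library. In the libraries labelled KO2 rescue EZH2 was below KO2 by 0.34 (95% interval -0.58 to -0.09), which did not pass the adjusted test (limma adjusted p = 0.0863).

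EZH1, the catalytic partner that PRC2 uses in cells that divide little, did not pass the test in any of the 12 comparisons. Its levels ran from 67.4 to 213 with a median of 127, and its largest difference from WT was 0.70 in KO1 (95% interval -0.08 to 1.47, limma adjusted p = 0.145). As EZH2 fell and EZH1 did not pass, the share of EZH1 in the summed EZH1 and EZH2 level per kilobase was 8.59% and 3.67% in the WT libraries and 13.1% and 12.8% after TGF-β. It was 17.4% and 25.1% in KO1 and 22.3% and 16.1% in KO2. EZH2 thus remained the larger part of the pair in every library. The share was 15.2% and 15.7% in the libraries labelled KO2 rescue and 6.02% to 11.1% in the rescue clones. These shares are descriptive and were not tested.

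EED, at 37.1 to 220 normalized counts, passed no comparison either. The EED values in WT, 176 and 110, overlapped those after TGF-β, 141 and 147, and those in KO1, 64.8 and 119. The KO2 libraries, at 103 and 82.8, and those labelled KO2 rescue, at 53.4 and 37.1, lay below the WT pair. The EED change in KO2 was -0.59 (limma adjusted p = 0.459). Of the words of the EED transcript, 9.28% also occur in a noncoding RNA on the opposite strand. SUZ12 was low and uneven. It was at 51.6 in WT replicate 1 and listed at 0 in WT replicate 2, at 34.3 and 31.6 after TGF-β, at 63.4 and 259 in KO1 and at 71.1 and 82.8 in KO2. The libraries labelled KO2 rescue held 10.4 and 0, and the 10% serum libraries held 57.8 to 293. SUZ12 passed the test in KO1 against WT (log2 change 4.16, limma adjusted p = 0.0263), but the call rested on 1 library in each group. Without WT replicate 2 the SUZ12 change was 1.30 (limma adjusted p = 0.408), and without KO1 replicate 2 it was 3.15 (limma adjusted p = 0.179). The housekeeping gene HPRT1 was also listed at 0 in 6 libraries, while TBP, GAPDH, RPLP0 and ACTB were above 0 in all. Whether a SUZ12 value of 0 is a failed estimate was not tested. In addition, 12.7% of the 31-base words of the SUZ12 transcript also occur in the pseudogene SUZ12P1, which held 58.3 to 288 normalized counts, so reads could be divided between both.

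RBBP7, a histone-binding subunit that PRC2 shares with other chromatin complexes, was the most abundant of the 10 genes, and its differences were small. WT held 3788 and 3129 normalized counts, TGF-β-treated WT held 2513 and 2659, KO1 held 2594 and 2849 and KO2 held 3005 and 2965. RBBP7 was lower after TGF-β by 0.41 (SE 0.08, limma adjusted p = 0.00183) and in KO1 by 0.34 (SE 0.08, limma adjusted p = 0.00292). In KO2 the change of -0.21 did not pass (limma adjusted p = 0.0649). The rescue clones, at 3178 to 3420, were above the knockout clones by 0.20 (SE 0.06, limma adjusted p = 0.00931), a call that was lost against KO2 alone (0.13, limma adjusted p = 0.165), while with the same total for every library the value was 0.59. They were above eGFP by 0.27 (SE 0.07, limma adjusted p = 0.0072), and eGFP, at 2697 and 2713, was below WT by 0.35 (limma adjusted p = 0.00413). Without WT replicate 1, the higher of the pair, these RBBP7 decreases were -0.28 after TGF-β, -0.20 in KO1 and -0.21 in eGFP, and each still passed. The call against eGFP was lost without eGFP replicate 1 (limma adjusted p = 0.0581). Of the words of the RBBP7 transcript, 6.62% also occur in TXLNG, which overlaps it on the opposite strand.

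PHF19, a Polycomb-like protein that recruits PRC2, was like EZH2 lower than WT in the other 2% serum groups, and it was low in the eGFP cells as well. WT held 687 and 750 normalized counts, TGF-β-treated WT held 209 and 296, KO1 held 199 and 181 and KO2 held 239 and 180. The libraries labelled KO2 rescue held 267 and 234. No library of these 4 groups reached the lower WT value. In Rescue1 PHF19 was at 452 and 337 and in Rescue2 at 543 and 403, while eGFP held 232 and 193 and the SOX2, OCT2 and PRRX1 libraries held 114 to 263. The rescue libraries thus lay above all the others but the WT pair.

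PHF19 fell 2.88-fold after TGF-β (log2 change -1.52, SE 0.30, limma adjusted p = 0.00216), 3.76-fold in KO1 (log2 change -1.91, SE 0.30, limma adjusted p = 1.1e-04) and 3.45-fold in KO2 (log2 change -1.79, SE 0.30, limma adjusted p = 2.9e-04). It was higher in the rescue clones than in the knockout clones by 1.10 (SE 0.21, limma adjusted p = 5.4e-04). Unlike EZH2, it also passed the test against eGFP, by 1.01 (SE 0.26, limma adjusted p = 0.00784), though without eGFP replicate 2 that change was 0.88 (limma adjusted p = 0.0814). The eGFP cells were lower than WT in PHF19 by 1.76 on the log2 scale (SE 0.30, limma adjusted p = 4.4e-04), against 0.34 for EZH2, and a test of the difference between the 2 genes was not run.

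MTF2, another Polycomb-like protein, had a different order of groups. It was at 211 and 224 in WT and 253 and 169 after TGF-β. KO1 held 193 and 63.8, KO2 held 115 and 140 and the libraries labelled KO2 rescue held 197 and 178, all below the WT pair. Neither clone passed against WT, with changes of -0.96 in KO1 (95% interval -1.77 to -0.16, limma adjusted p = 0.0554) and -0.77 in KO2 (limma adjusted p = 0.15). The 8 libraries of the transduced WT cells held 301 to 512, above all WT and knockout libraries. Rescue1 held 347 and 218 and Rescue2 held 228 and 187. MTF2 passed in eGFP against WT (log2 change 1.17, SE 0.38, limma adjusted p = 0.0328), a call lost without any single WT or eGFP library. The rescue clones were above the knockout clones by 1.0 (SE 0.27, limma adjusted p = 0.00655) and below eGFP by 1.03 (SE 0.33, limma adjusted p = 0.0263). Without KO1 replicate 2, the lowest MTF2 library, the first of these was 0.60 and still passed (limma adjusted p = 0.0177). The second was lost without Rescue1 replicate 2, without Rescue2 replicate 2 or without either eGFP library.

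JARID2, which belongs to another form of PRC2, was listed at 0 in 10 of 22 libraries and did not pass in any comparison. Its values were 6.77 and 0 in WT and 104 and 39.1 after TGF-β. KO1 had 73.5 and 19.98 and KO2 had 8.05 and 0. All 4 of the TGF-β and KO1 libraries were above the WT pair. The same held for both Rescue2 libraries (39.6 and 17.5) and for single libraries of KO2, labelled KO2 rescue, eGFP, SOX2 and PRRX1 (8.05 to 71.9). The TGF-β change of JARID2 had a 95% interval of 0.14 to 8.93 on the log2 scale and did not pass (limma adjusted p = 0.162). The JARID2 values rest on a median of about 7 reads and differed widely between replicates, and no difference was detectable after adjustment.

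KDM6B, also known as JMJD3, is the demethylase that signals induce, and it was the only one of the 10 genes to pass as higher after TGF-β. The gene lies at chr17:7834217-7854796 on the plus strand (GRCh38). WT held 799 and 496 normalized counts, and TGF-β-treated WT held 2788 and 2287. KO1 held 1262 and 1390, KO2 held 927 and 784, and the libraries labelled KO2 rescue held 550 and 763. Both TGF-β libraries were above every other library, KO1 was above WT without overlap, and KO2 overlapped WT. Rescue1 was at 669 and 421, Rescue2 at 543 and 497, eGFP at 668 and 754, and the SOX2, OCT2 and PRRX1 libraries were at 724 to 931.

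KDM6B rose 4.0-fold after TGF-β (log2 change 2.00, SE 0.23, limma adjusted p = 2.7e-05) and 2.10-fold in KO1 (log2 change 1.07, SE 0.23, limma adjusted p = 0.00177). In KO2 the change was 0.44 (95% interval -0.06 to 0.93, limma adjusted p = 0.187). The difference between the clones, 0.64, did not pass either (95% interval 0.14 to 1.13, limma adjusted p = 0.0791). The knockout clones were below TGF-β-treated cells by 1.25 (SE 0.20, limma adjusted p = 1.6e-04). The rescue clones were below the knockout clones by 1.02 (SE 0.16, limma adjusted p = 1.2e-04) and, at -0.43 against eGFP, did not pass there (95% interval -0.86 to -0.01, limma adjusted p = 0.123). When all libraries were given the same total, which moved the median of all genes by -0.39 in KO1 and by 0.37 between rescue and knockout, KDM6B was higher in KO1 by 0.66 (limma adjusted p = 0.0245) and lower in the rescue clones by 0.62 (limma adjusted p = 0.00393).

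KDM6A, or UTX, the X-linked demethylase that also belongs to an H3K4 methyltransferase complex, changed less. It was at 403 and 388 in WT, 470 and 430 after TGF-β, 544 and 705 in KO1, 501 and 417 in KO2, and 533 to 585 in the rescue clones. Every TGF-β, KO1 and KO2 library was above the WT pair. KDM6A passed in KO1 (log2 change 0.65, SE 0.17, limma adjusted p = 0.00753) and not after TGF-β (0.19, limma adjusted p = 0.557) or in KO2 (0.21, limma adjusted p = 0.416). The KO1 call was lost when every library was given the same total (0.24, limma adjusted p = 0.284) and without KO1 replicate 2 (0.46, limma adjusted p = 0.0906). In eGFP, at 683 and 656, KDM6A was above WT by 0.76 (SE 0.17, limma adjusted p = 0.00412).

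**Figure D2:**
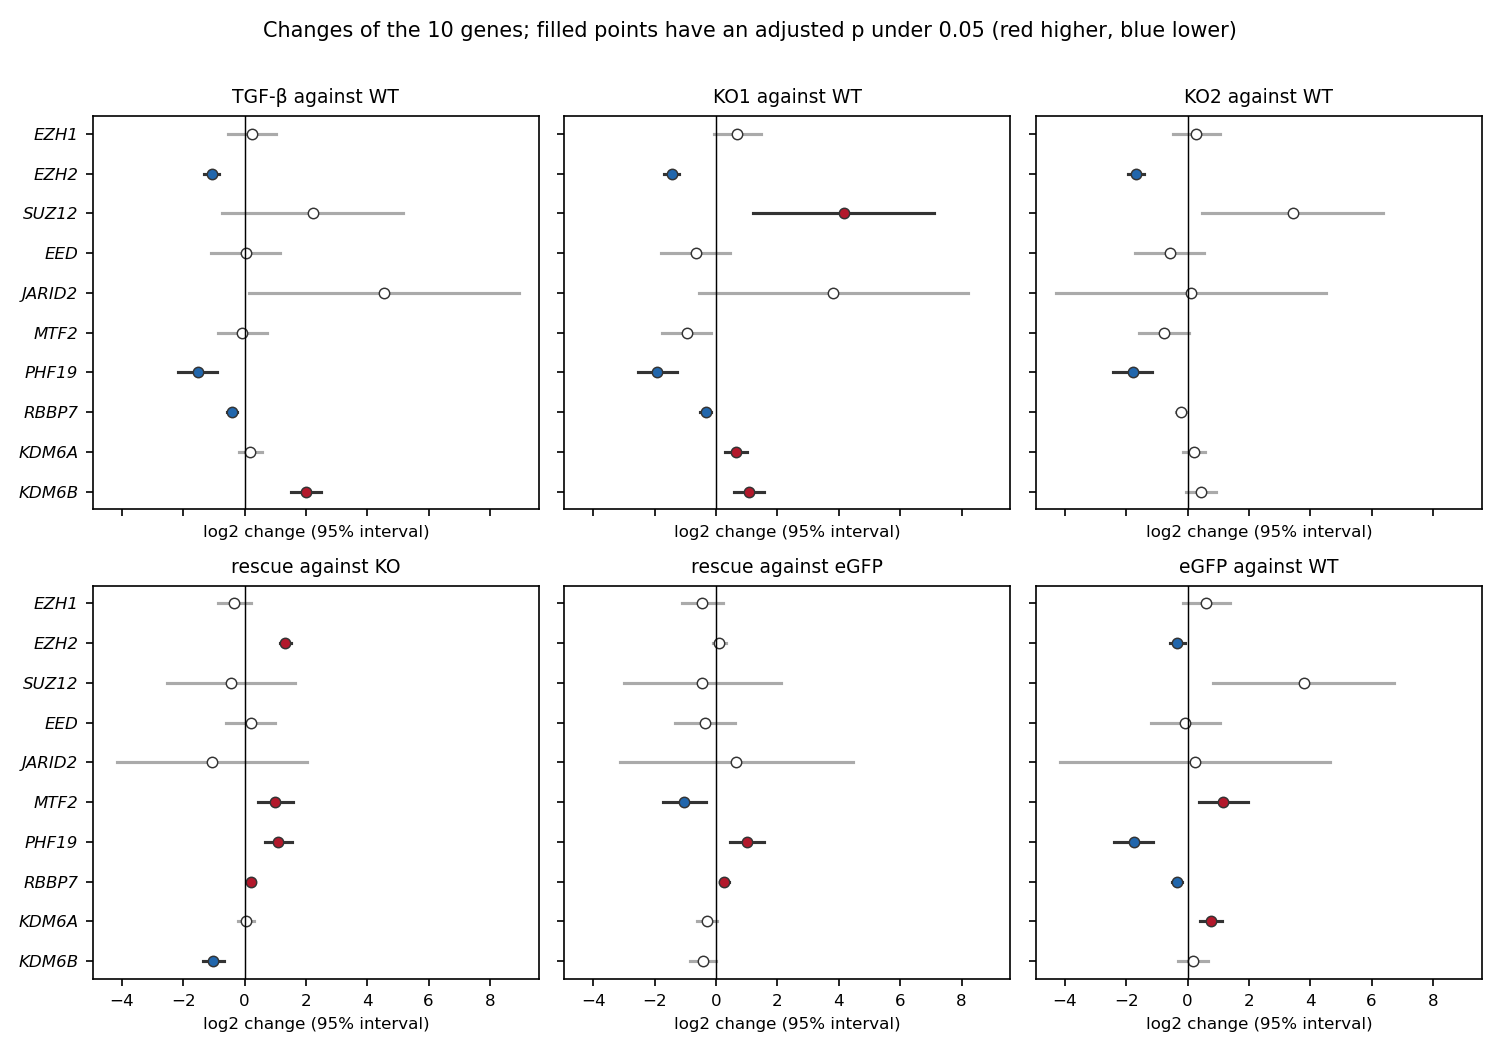
Log2 changes (points) with 95% intervals (lines) of the 10 genes in 6 comparisons from the limma test, filled where the adjusted p was under 0.05. EZH2 and PHF19 were lower in all 3 comparisons of the top row and higher in the rescue clones than in the knockout clones, and the intervals of SUZ12 and JARID2 were the widest.

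The number of the 10 that passed is set beside the share of all genes that passed in the same comparison. After TGF-β 4 of 10 passed, 1 higher and 3 lower, where 17.7% of all genes tested passed, 8.5% higher and 9.22% lower. In a fit of the 4 TGF-β and WT libraries alone 0 of the 10 passed, and 5 had an unadjusted limma p under 0.05. The share of all genes that passed in that smaller fit was not recorded, so this 0 cannot be set beside it. In KO1 6 of 10 passed, 3 higher and 3 lower, beside 39.8% of all genes, 19% higher and 20.8% lower. The KO2 clone had 2 of 10, both lower, beside 28.9% of all genes and 13.7% lower. Between knockout and TGF-β-treated cells 2 of 10 passed, both lower in the knockout, beside 36.3% of all genes and 18.2% lower. Between rescue and knockout clones 5 of 10 passed, 4 higher and 1 lower, beside 45.7% of all genes, 22.5% higher and 23.2% lower. For rescue against eGFP the number was 3, 2 higher and 1 lower, beside 29.5% of all genes, 14.9% higher and 14.6% lower. For eGFP against WT it was 5, 2 higher and 3 lower, beside 26.6% of all genes, 13.1% higher and 13.5% lower. No gene of the 10 passed between KO1 and KO2 (16% of all genes; 2 of the 10 had an unadjusted limma p under 0.05) or between the libraries labelled KO2 rescue and KO2 (10.3%; 3 unadjusted). For the 10 genes together the median log2 change was 0.11 with TGF-β, 0.15 for KO1 and -0.05 for KO2, beside a median of 0.00 over all genes in each.

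With forced expression of the 3 transcription factors almost no gene passed against eGFP, and so the 10 genes do not stand apart here. Of the 10, 0 passed in SOX2 (0.0206% of all genes passed), in OCT2 (0.0411%) and in PRRX1 (0.048%), and 0 had an unadjusted limma p under 0.05. For EZH2 the 95% intervals were -0.43 to 0.07 with SOX2, -0.30 to 0.20 with OCT2 and -0.29 to 0.20 with PRRX1, on the log2 scale. For KDM6B they were -0.40 to 0.59, -0.31 to 0.68 and -0.19 to 0.80. Those of SUZ12 and JARID2 were far wider, for example -1.98 to 3.93 for SUZ12 with PRRX1 and -6.12 to 2.67 for JARID2 with OCT2. For these low genes, differences within such ranges were not detectable in these libraries.

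The demethylases were set against the catalytic subunits as the ratio of summed KDM6A and KDM6B to summed EZH1 and EZH2, each per kilobase of transcript. Of these 4 genes EZH2 passed against WT after TGF-β and in both knockout clones, KDM6B after TGF-β and in KO1, KDM6A in KO1 and EZH1 in none of the 3. It was 0.512 and 0.346 in WT and 2.61 and 2.06 after TGF-β. In KO1 it was 1.84 and 1.76, in KO2 1.58 and 1.38, and in the libraries labelled KO2 rescue 1.36 and 1.75. The ratio was therefore below 1 in WT and above 1 in every other 2% serum library. In 10% serum all libraries were below 1, at 0.466 to 0.608 in the rescue clones, 0.683 and 0.693 in eGFP and 0.753 to 0.843 in the other transduced cells. KDM6B alone was at 0.276 of EZH2 per kilobase in WT on average, and at 2.25 after TGF-β, 1.51 in KO1 and 1.15 in KO2. This is a ratio of RNA levels, and no test was run on it.

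**Figure D3:**
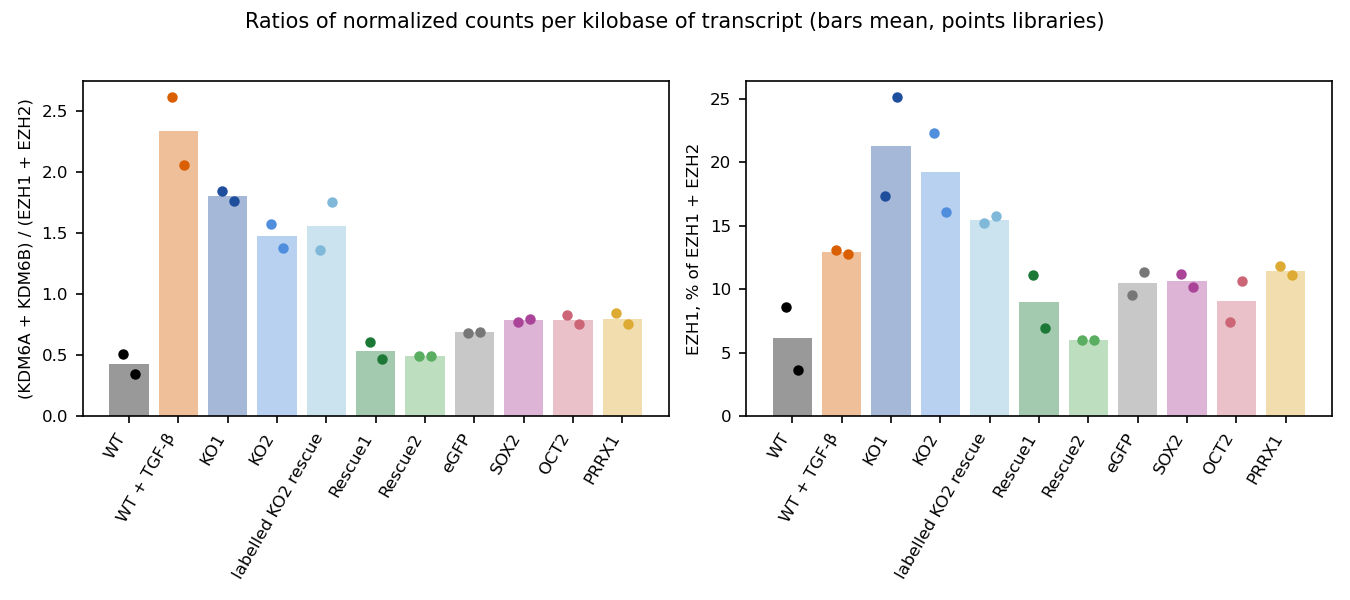
Left, the ratio of KDM6A plus KDM6B to EZH1 plus EZH2, and right, EZH1 as a percent of EZH1 plus EZH2, both from normalized counts per kilobase, with a bar for the group mean and a point per library. The ratio exceeded 1 in the 8 libraries of TGF-β, KO1, KO2 and labelled KO2 rescue cells and in none of the other 14.

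Levels of EZH2 and PHF19 were also placed beside a list of proliferation genes, since EZH2 is known to be made mostly in dividing cells. Of the 11 genes with enough counts, 7 were lower after TGF-β, 9 in KO1 and 8 in KO2, with median log2 changes of -2.05 for TGF-β, -3.62 for KO1 and -2.40 for KO2, and 9 were higher in the rescue than in the knockout clones. Over all genes 9.22% were lower after TGF-β, 20.8% in KO1 and 13.7% in KO2, and 22.5% were higher between rescue and knockout. The summed level of the list was 11840 and 17250 in WT and 3106 and 3514 after TGF-β. KO1 reached 1357 and 1316 for the list and KO2 reached 2324 and 2775. It was 10158 to 11078 in the rescue clones. EZH2 was therefore low where the list was low in these groups, and the part of proliferation in its level was not tested. In a bulk sample, fewer cells that express a gene and less RNA in each cell cannot be told apart.

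The order did not hold throughout. The libraries labelled KO2 rescue held 4203 and 4157 for the list, near eGFP at 4550 and 5120, but EZH2 was at 249 and 216 in the former and at 743 and 746 in eGFP. KO1 was below KO2 in the list and not below it in EZH2. PHF19 was at 267 and 234 in the libraries labelled KO2 rescue and at 232 and 193 in eGFP, so for PHF19 these groups lay close together. Fibroblast markers differed between the groups too. Their summed level, mainly DCN and COL1A1, was 837 to 12435 in WT, 46246 to 47705 after TGF-β, 100011 to 236417 in the knockout clones and 808 to 1513 in the rescue clones. Of the 5 fibroblast markers, 2 were higher after TGF-β and 3 in each knockout clone, beside 8.5% of all genes after TGF-β, 19% in KO1 and 15.3% in KO2, and the part of this in the levels of the 10 genes was not tested.

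**Figure D4:**
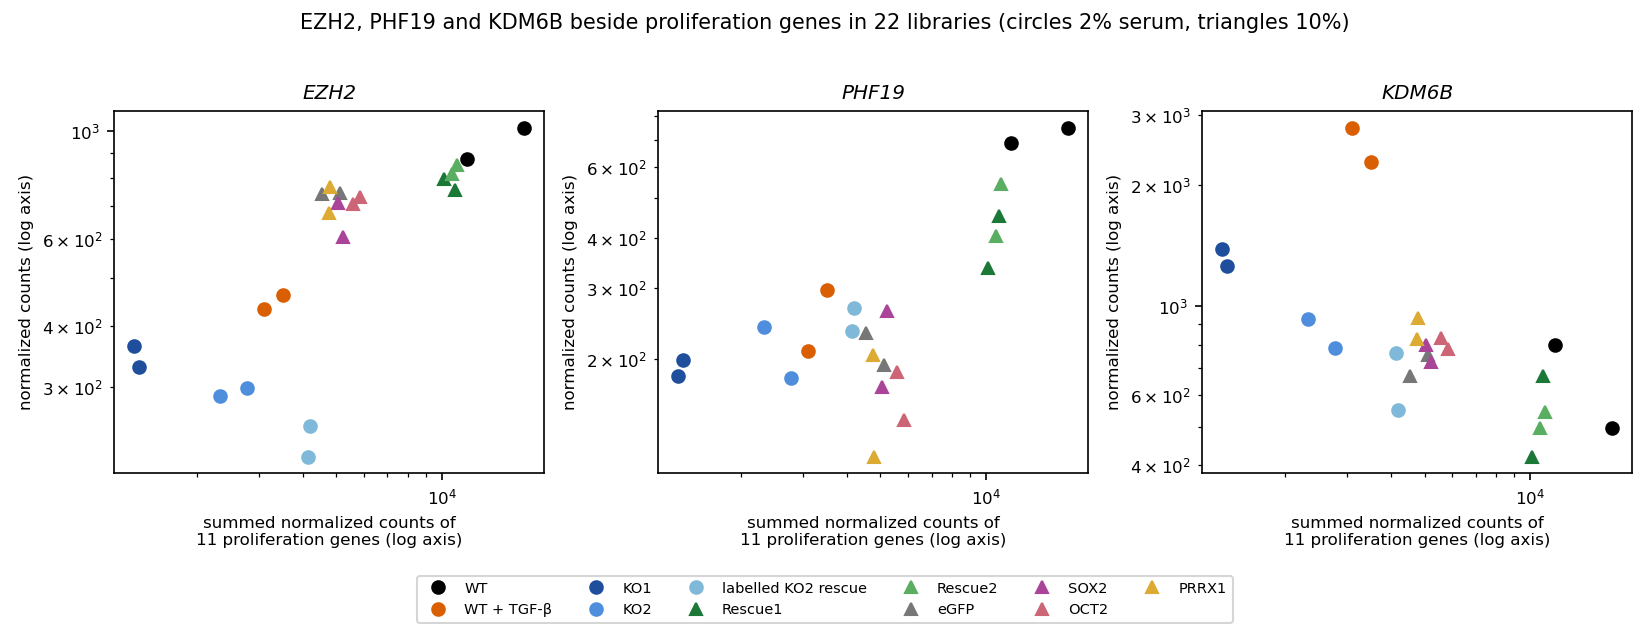
EZH2, PHF19 and KDM6B (normalized counts, log axis) against the summed normalized counts of 11 proliferation genes (log axis) in the 22 libraries, circles for 2% and triangles for 10% serum. EZH2 in the libraries labelled KO2 rescue (249 and 216) lay below eGFP (743 and 746) at a like summed level, and KDM6B after TGF-β lay above all other libraries.

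Other genes of the Polycomb and H3K27 machinery were counted in the same way, and each count is set beside the share of all genes that passed. Of the 5 other PRC2 genes with enough counts none passed after TGF-β (17.7% of all genes) or in KO2 (28.9%). In KO1, where 39.8% of all genes passed, PHF1 (log2 change 2.61) and AEBP2 (0.41) were higher and LCORL (-0.89) and RBBP4 (-0.63) were lower. PHF1, also a Polycomb-like protein, was low, at 3.74 and 17.3 in WT and 46.8 and 66.3 in KO1. Its KO1 call was lost without WT replicate 1 (1.63, limma adjusted p = 0.242) or without either KO1 library, and that of AEBP2 without either WT library or KO1 replicate 2. RBBP4, the close relative of RBBP7, was higher in the rescue than in the knockout clones by 0.58 (limma adjusted p = 2.2e-07). All 5 genes passed in that comparison, 3 higher and 2 lower, beside 45.7% of all genes, and of these RBBP4 and LCORL also passed with any single library left out. Between eGFP and WT 4 of the 5 passed, all higher, beside 13.1% of all genes higher. Of the 4, AEBP2 also passed with any single library left out.

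PRC1, the complex that binds the H3K27 mark and ubiquitinates histone H2A, was represented by 19 genes. After TGF-β 1 of the 19 passed, PCGF3 with 0.62, beside 17.7% of all genes. In KO1 8 of the 19 passed, a share near the 39.8% of all genes. The 6 that were higher (19% of all genes) were led by PCGF1 (1.20) and KDM2B (1.08), but the PCGF1 call was lost without any single WT or KO1 library, and that of KDM2B without WT replicate 1 or KO1 replicate 2. The 2 that were lower (20.8% of all genes) were RNF2 (-1.50), a catalytic subunit, and PCGF5 (-1.0). RNF2 was at 236 and 349 in WT and at 249.96 and 40.1 in KO1, so the groups overlapped and its change rested on KO1 replicate 2. Without that library the RNF2 change was -0.20 (limma adjusted p = 0.664), without KO1 replicate 1 it was -2.81, and the call was lost without either WT library.

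KO2 had 2 PRC1 genes higher, RYBP (0.58) and PHC2 (0.38), and 1 lower, PCGF5 (-0.84), beside 28.9% of all genes. The RYBP call was lost without WT replicate 2 (0.32, limma adjusted p = 0.212) or KO2 replicate 1. PCGF5 was at 994 and 933 in WT, 390 and 598 in KO1, 537 and 541 in KO2 and 768 to 917 in the rescue clones, so the knockout libraries lay below both other groups. Between rescue and knockout clones 3 PRC1 genes were higher, BMI1 (1.25) and PCGF5 (0.68) the most, and 6 were lower, CBX7 (-1.74) and PHC1 (-1.61) the most, beside 22.5% of all genes higher and 23.2% lower. PHC1 was at 79.5 and 5.30 in Rescue1, 53.8 and 117 in Rescue2 and 60.7 to 237 in the knockout clones. Without Rescue1 replicate 2 its change was -0.69 (limma adjusted p = 0.216), without Rescue1 replicate 1 it was -2.53, and the call was also lost without KO1 replicate 2, either KO2 library or Rescue2 replicate 1. CBX7 was low, at 17.7 to 31.6 in the knockout clones and 1.58 to 10.9 in the rescue clones, and its call was lost when any one of 6 of these 8 libraries was left out. For the 19 genes together the median log2 change was 0.03 with TGF-β, 0.27 for KO1 and 0.02 for KO2, beside 0.00 over all genes in each.

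Of 8 genes of the H3K4 methyltransferase complex that contains KDM6A, 1 was lower after TGF-β (ASH2L, -0.46), beside 9.22% of all genes. In KO1 3 were lower, with WDR5 (-0.66) and PAXIP1 (-0.60) the most, beside 20.8%, and in KO2 2 were lower (PAXIP1, -1.21, and WDR5, -0.56), beside 13.7%. None was higher in these 3 comparisons. Between rescue and knockout clones 3 of the 8 were higher, among them WDR5 (0.58) and PAXIP1 (0.61), beside 22.5% of all genes. In the same comparison 2 were lower, DPY30 (-0.80) and KMT2C (-0.63), beside 23.2%. Without KO1 replicate 2 these 2 changes were -0.60 and -0.31. Of the acetyltransferases that use the same lysine 27, EP300 passed in none of these comparisons and CREBBP passed in KO2 (1.68, limma adjusted p = 0.0241), where it was at 8089 in replicate 1 and 1787 in replicate 2, beside 1067 and 1309 in WT. Without KO2 replicate 1 the CREBBP change was 0.60 (limma adjusted p = 0.363), without KO2 replicate 2 it was 2.77, and the call was lost without either WT library.

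**Figure D5:**
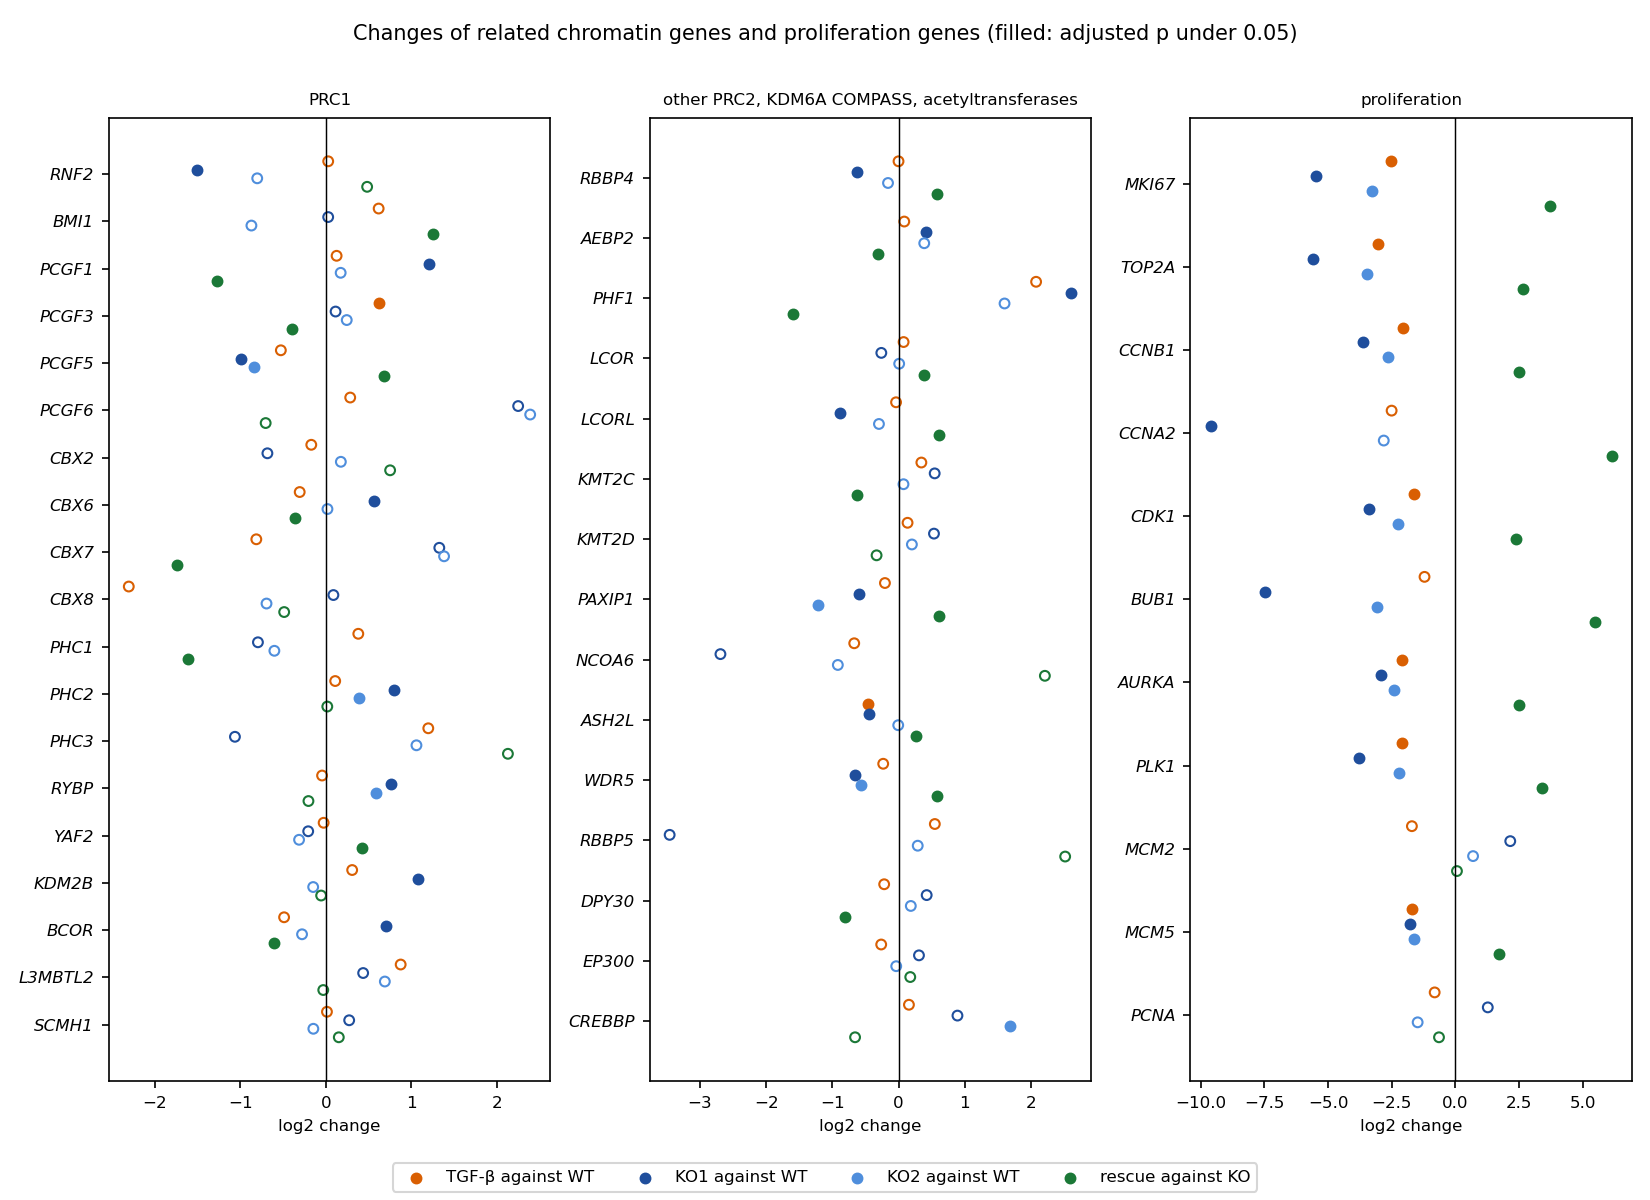
Log2 changes of PRC1 genes (left), of other PRC2, KDM6A complex and acetyltransferase genes (middle) and of proliferation genes (right) in 4 comparisons, filled where the limma adjusted p was under 0.05. Filled points of the PRC1 panel are mostly those of KO1 (8 genes) and of rescue against knockout (9 genes), and the proliferation genes lie left of 0 in the knockout clones except MCM2 in both and PCNA in KO1.

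Across the 22 libraries, the genes whose levels were most like those of EZH2 on the log2 scale were TNNT1 (Pearson's r = 0.94), LRRFIP2 (0.94) and RAD21 (0.93). For PHF19 they were RBCK1 (0.89), TMEM14B (0.88) and H2AX (0.88), and for KDM6B they were COL7A1 (0.94), RAPGEFL1 (0.91) and PRICKLE2 (0.89). KDM6A was most like ZNF148 (0.91), RSF1 (0.89) and ANKRD17 (0.89), and MTF2 most like POLR1D (0.91), LATS1 (0.91) and PHAX (0.91). The closest genes were weaker for EED (MOXD1, 0.76) and JARID2 (DPP7, 0.72). These correlations are over 22 libraries that fall into 11 groups, so they describe shared differences between groups, and no p is given.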

How the data were processed

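RNA-seq of 22 libraries in 11 groups was analysed, grouped by their labels. The values deposited by the authors are log2 values, 11.32 to 21.28, with 11.32 the value of a gene without counts. They have the form of DESeq2's variance-stabilized counts, though the transformation is not stated. Per the labels, Salmon 1.9.0 and DESeq2 1.26.0 were used, with the hg38 genome. The values were turned back into normalized counts by inverting that function, so normalized counts rest on this reading of the file. No column was left out. Read totals were estimated from the step between low values.

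The 14585 genes that reached 10 normalized counts in 2 libraries or more entered the test by limma 3.58.1 (R 4.3.3) on log2(normalized count + 1), with an intensity trend, all 22 libraries, group means and no covariate. Benjamini-Hochberg adjustment covered all genes tested. Fold changes are on the log2(count + 1) scale, which understates changes of low genes. On simulated data for KO1 against WT, 200 of 200 genes changed by 2 on the log2 scale were recovered among 14585, with 11 others called. The simulation used the same dispersion for every gene and changed no gene of low mean. It did not copy the uneven replicates seen for SUZ12 and JARID2, so it gives neither the power nor the error rate in these data. The test had been planned for linear normalized counts and was kept.

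All 10 genes were to be named with each call, and in other lists the 2 highest and 2 lowest calls. The genes and lists were chosen with earlier results of these data known. In the table there was no row for RING1, PCGF2, EPOP, EZHIP, PAGR1 and E2F1 under these symbols, so they were not analysed here. A further gene of the PRC1 list is not reported here. Endothelial and leukocyte markers were also summed, at 2.66 to 154 and 0 to 368 normalized counts per library. Replicate numbers did not pair the libraries: over 55 pairs of groups the correlation of deviations was -0.14 to 0.11. Lengths, exons and shared 31-base words came from the GENCODE GRCh38 annotation, and promoters from RefSeq. Alternatives were other pseudocounts, filters, scalings, the deposited log2 values, fewer libraries and a replicate block. Leaving out libraries for the genes of the related lists was added after seeing the data.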

Additional observations from a re-analysis of the deposited data

How the results depend on the processing

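Of 120 pairs of gene and comparison 27 passed, 20 of them also with each library left out in turn, and none of the 27 reversed. The replicate block changed none of the 27 calls (EZH2 in KO1 -1.44), and with it 4 of the 10 genes passed after TGF-β and 7, in place of 6, in KO1. When a fit used no libraries beyond the pair of groups, which leaves fewer samples for the spread, 0 passed after TGF-β (5 at an unadjusted limma p under 0.05), 2 in KO1 and 3 in eGFP against WT. Between KO1 and KO2, 1 passed with the same total per library and 1 on the deposited log2 values. For the libraries labelled KO2 rescue against KO2, 1 passed with a pseudocount of 5, with a mean of at least 50 counts and with quantile normalization, where the cause was not tested. The share of all genes that passed was not recorded for these alternative fits, so their counts do not set the 10 genes apart from other genes. Leaving out 1 library, which leaves 1 in its group, changed the number that passed in several comparisons. Among them were KO1, KO2, TGF-β and eGFP each against WT, KO1 against KO2 and the knockout clones against TGF-β. Rescue against eGFP and the libraries labelled KO2 rescue against KO2 were also among them. For rescue against eGFP the change was then -1.20 to -0.87 for MTF2, 0.88 to 1.14 for PHF19 and 0.25 to 0.30 for RBBP7. For eGFP against WT it was -0.44 to -0.23 for EZH2. MTF2 in rescue against knockout was lost with Rescue2 alone (0.79) and RBBP7 against KO2 alone (0.13). With the same total, RBBP7 changed by -0.65 after TGF-β, -0.75 in KO1 and 0.59 between rescue and knockout.

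JARID2 rests on a median of about 7 reads and SUZ12 on about 67, against about 688 for EZH2 and about 857 for KDM6B. Replicates of JARID2 and SUZ12 also differed widely at like depth. JARID2 was at 0 and 71.9 in the libraries labelled KO2 rescue, and SUZ12 at 63.4 and 259 in KO1. The part of depth in this was not tested. With 2 libraries per group, intervals of low genes span several log2 units. RNA levels were measured, and neither the proteins nor the H3K27 mark.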
